A study of Mus musculus with 6 samples.

Results

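Heat shock proteins were followed here through 10 genes of the inducible and constitutive cytosolic chaperone systems and the mitochondrial chaperonin, found by symbol among the 18159 genes of the count table. The genes are Hspa1a, Hspa1b and Hspa8 of the HSP70 family, Hsph1 of the HSP110 family, the J protein gene Dnajb1, Hsp90aa1 and Hsp90ab1 of the HSP90 family, the chaperonin genes Hspd1 and Hspe1, and the small heat shock protein gene Hspb1. All 10 had enough reads to be tested. Messenger RNA came from epithelial cells of the mouse intestine, in 3 libraries labelled Git2-knockout and 3 wild-type libraries, all from mice aged 12 days. Git2 encodes a signalling scaffold and GTPase-activating protein for Arf. The sample titles speak of epithelial cells, while the design text of the series calls the samples enteroids, which are organoids grown from intestinal crypts. The genotype field says knockdown where the titles say knockout. The allele, the strain, the sex and the number of animals behind a library are not stated in any source used here.

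Heat shock proteins bind unfolded or partly folded proteins and keep them from aggregating. HSP70 works in a cycle of ATP hydrolysis that J proteins start and that HSP110 and other exchange factors reset, while HSP90 completes the folding of kinases and steroid receptors that HSP70 hands on. The heat shock factor Hsf1 switches on the inducible members when proteins unfold, through heat shock elements in their promoters, which are repeats of the bases GAA and their complement TTC in alternating orientation. In the gut epithelium, inducible HSP70 and Hspb1 protein are known for protecting cells from oxidants and inflammation.

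Promoters are shown for the members whose heat shock elements bear on how the genes may be grouped: the near-identical pair Hspa1a and Hspa1b, the chaperonin genes that share 1 promoter, and Hsph1, the member with the largest fold change. The sequences are those of RefSeq on the GRCm38.p6 mouse build, from 250 bases before to 50 bases after a transcription start, 5′ to 3′ on the strand of the gene. Capitals mark a heat shock element, either a pair (GAANNTTC or TTCNNGAA) or a triple (GAANNTTC followed directly by NNGAA, or TTCNNGAA followed directly by NNTTC), where N is any base. Each pair and the 2 triples together read the same on both strands, triples contain pairs, and neighbouring matches may overlap. The Hspa1a window lies at chr17:34972107-34972406 and the Hspa1b window at chr17:34959189-34959488, both on the minus strand. The Hspe1 window lies at chr1:55087898-55088197 on the plus strand, and the Hsph1 window at chr5:149636287-149636586 on the minus strand.
Hspa1a: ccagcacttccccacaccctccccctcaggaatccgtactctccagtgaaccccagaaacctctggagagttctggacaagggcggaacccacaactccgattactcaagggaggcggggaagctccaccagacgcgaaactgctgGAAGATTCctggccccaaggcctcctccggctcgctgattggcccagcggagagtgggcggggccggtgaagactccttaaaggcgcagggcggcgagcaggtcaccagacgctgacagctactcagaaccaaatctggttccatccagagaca
Hspa1b: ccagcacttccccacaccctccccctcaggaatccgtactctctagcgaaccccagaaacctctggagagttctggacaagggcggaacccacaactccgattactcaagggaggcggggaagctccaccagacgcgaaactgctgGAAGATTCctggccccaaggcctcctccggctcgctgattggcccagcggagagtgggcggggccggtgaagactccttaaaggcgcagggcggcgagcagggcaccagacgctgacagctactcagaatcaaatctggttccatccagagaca
Hspe1: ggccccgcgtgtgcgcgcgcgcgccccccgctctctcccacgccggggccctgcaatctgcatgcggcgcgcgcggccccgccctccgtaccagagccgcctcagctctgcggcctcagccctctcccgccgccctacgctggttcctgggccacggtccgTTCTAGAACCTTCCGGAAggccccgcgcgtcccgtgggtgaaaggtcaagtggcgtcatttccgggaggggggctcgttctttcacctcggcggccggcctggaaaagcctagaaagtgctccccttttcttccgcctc
Hsph1: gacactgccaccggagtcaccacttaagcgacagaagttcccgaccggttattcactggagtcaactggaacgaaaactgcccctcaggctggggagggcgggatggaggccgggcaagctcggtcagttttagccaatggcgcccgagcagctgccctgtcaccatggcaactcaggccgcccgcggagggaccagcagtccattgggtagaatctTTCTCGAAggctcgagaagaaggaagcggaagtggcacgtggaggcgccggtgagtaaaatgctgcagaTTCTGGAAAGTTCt

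The Hspa1a and Hspa1b windows differed at 4 of 300 bases, and each held 1 pair, 104 bases before the start. Their coding sequences, of 1923 and 1926 bases, were 99.5% identical, so reads from the 2 genes can be split between them in error. The Hspe1 window held overlapping pairs that formed triples beginning 89 and 84 bases before its start. A window of Hspd1 on the opposite strand, at chr1:55087883-55088182, covered 285 of the same bases and therefore the same elements. Hsph1 held a pair 33 bases before its start and a triple that began 36 bases after it. A promoter window was found for 7 of the 10 members, leaving out Hspa8, Hsp90aa1 and Hsp90ab1. Of those 7 genes, 6 had a pair in at least 1 window, against 17.0% of the 27025 genes with a window and 15.1% of all 32851 windows. A triple was found for 3 of the 7 (Hspd1, Hspe1 and Hsph1), against 0.662% of genes and 0.603% of windows. These counts take genes singly, though Hspd1 and Hspe1 share their elements and the Hspa1a and Hspa1b windows are near-identical. Neither Dnajb1 window held either motif, which says only that these letters are not in those stretches.

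The libraries labelled Git2-knockout held 16284414 to 16837158 estimated reads, and the wild-type libraries held 18753649 to 19106581. Git2 itself averaged 16.6 ± 0.98 CPM (counts scaled to a fixed library total and for library composition) in the libraries labelled Git2-knockout and 22.9 ± 0.76 CPM in wild-type (SD, n = 3 each). Its log2 fold change was -0.47 (SE 0.07, edgeR with p-values adjusted by Benjamini-Hochberg, adjusted p = 4.44e-05). Which part of Git2 was altered is unknown, so the level is no check of the genotype. Among all genes tested 29.6% rose and 27.4% fell by edgeR. Of 12 epithelial markers, 0 rose and 10 fell by edgeR, and 2 rose and 7 fell on the log2(TPM + 1) scale by limma, with summed levels of 13490 to 13610 TPM in the libraries labelled Git2-knockout and 14120 to 14660 TPM in wild-type (TPM is reads per transcript length, scaled to a fixed total per library). Epcam and Cdh1, the defining epithelial adhesion genes, were the pair of markers not called by edgeR and the pair that rose on the TPM scale (0.17 and 0.25), where Epcam stood at 2821 ± 31.0 TPM in the libraries labelled Git2-knockout and 2510 ± 28.0 TPM in wild-type. On the log2(TPM + 1) scale 42.1% of all genes rose and 14.0% fell by limma. Markers of other cells also moved between the groups, and their part in the results on heat shock genes was not tested. Fibroblast and smooth muscle markers summed to 112 to 123 TPM against 39.0 to 41.1 TPM in wild-type (14 of 16 tested rose, 0 fell), endothelial markers to 53.1 to 61.4 TPM against 24.0 to 24.8 TPM (13 of 14 rose, 0 fell), and erythroid markers to 303 to 329 TPM against 83.2 to 87.7 TPM (4 of 5 rose, 0 fell). B cell markers summed to 8.62 to 10.4 TPM against 21.1 to 21.6 TPM in wild-type (6 of 6 tested fell), and macrophage markers to 142 to 147 TPM against 172 to 174 TPM (2 of 12 rose and 1 fell). The marker that fell was Csf1r, at 53.6 ± 1.91 TPM in the libraries labelled Git2-knockout and 104 ± 0.74 TPM in wild-type, while C1qa (log2 fold change 0.46) and C1qb (0.64) rose, so the lower macrophage sum follows Csf1r and not the list. Neutrophil, T cell, and neuron and glia markers summed to 1.89 to 2.54, 9.47 to 10.8 and 66.8 to 73.3 TPM, against 1.71 to 2.84, 8.04 to 9.82 and 59.4 to 60.9 TPM in wild-type. The markers Elane (neutrophil), Ighm (B cell) and Trac (T cell) had no row or only zeros. In whole-culture or whole-tissue RNA, fewer cells of a type and less RNA per cell cannot be told apart.

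Heat shock transcripts were abundant in both groups and stood in the same order in all 6 libraries. Together the 10 genes made up 3977, 4100.4 and 4101 TPM in the libraries labelled Git2-knockout, against 4303, 4235 and 4121 TPM in the wild-type libraries. Every library labelled Git2-knockout lay below every wild-type library, by a small margin, and the share of all transcripts was 0.398% to 0.41% against 0.412% to 0.43%. In TPM, a level per transcript length, the order from high to low was Hspa8, Hsp90ab1, Hsp90aa1, Hspd1, Hspe1, Dnajb1, Hspa1b, Hspa1a, Hsph1 and Hspb1. The top of the order, Hspa8, averaged 1855 ± 31.1 TPM in the libraries labelled Git2-knockout and 1972 ± 47.1 TPM in wild-type. The bottom, Hspb1, averaged 4.45 ± 0.27 TPM in the libraries labelled Git2-knockout and 4.31 ± 0.52 TPM in wild-type (SD, n = 3 each). Within a group no pair of neighbours in the order overlapped between libraries. Over all 6 libraries, the ranges of Hsp90aa1 and Hspd1 overlapped, as did those of Hspa1b and Hspa1a.

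**Figure D1:**
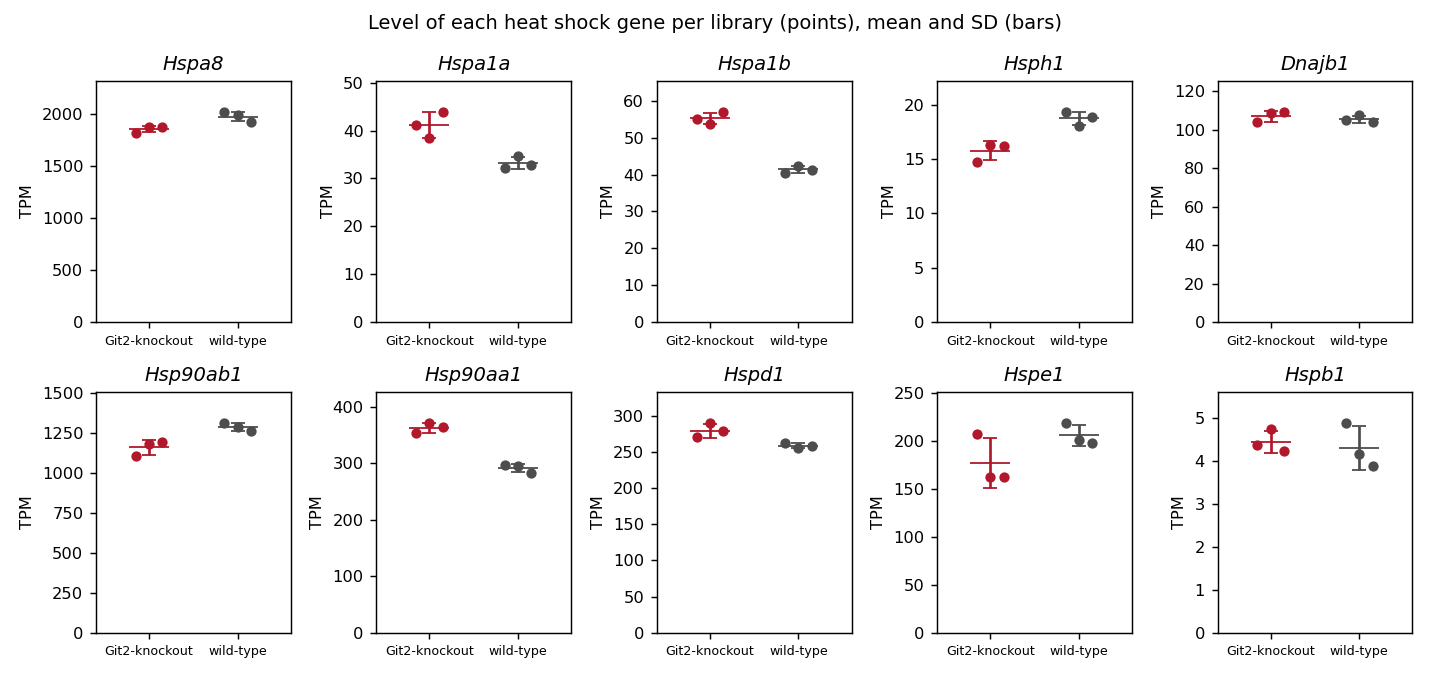
Level of each heat shock gene in TPM (vertical axes, each from 0) in the 3 libraries labelled Git2-knockout (left, red) and the 3 wild-type libraries (right, grey). Points are libraries, and bars are the mean and SD. Hspa1a, Hspa1b and Hsp90aa1 lie higher in the libraries labelled Git2-knockout, Hspa8, Hsp90ab1 and Hsph1 lie lower, and 1 of the 3 libraries labelled Git2-knockout stands apart for Hspe1.

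Between the groups, the heat shock genes did not move together. Of the 10 genes, 3 rose in the libraries labelled Git2-knockout (Hspa1a, Hspa1b and Hsp90aa1), 5 fell (Hspa8, Hsp90ab1, Hsph1, Dnajb1 and Hspe1) and 2 passed no threshold (Hspd1 and Hspb1), in edgeR's quasi-likelihood test with a threshold of 0.05 on the adjusted p. Among all 13558 genes tested, 29.6% rose and 27.4% fell, 57.0% in all, so a share of 8 changed members in 10 was read against a background in which most genes changed. The median log2 fold change of the 10 genes was -0.13, against 0.02 for all genes tested. The CPM values of the groups did not overlap for 8 of the 10 genes, against 62.9% of all genes. All changes were small, between 75.3% and 119% of the wild-type level. The labels do not say whether the libraries of a group are separate animals or cultures, and the p-values therefore reflect the spread among these libraries alone, which may be technical.

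The constitutive HSP70 gene Hspa8, which encodes the HSC70 protein that also strips clathrin from vesicles, fell. It had 1699, 1668 and 1686 CPM in the libraries labelled Git2-knockout, against 2024, 2018 and 1966.5 CPM in wild-type. The groups did not overlap, and libraries within a group lay close together. The log2 fold change was -0.25 (SE 0.03, edgeR, Benjamini-Hochberg adjusted p = 1.09e-05), or 84.1% of the wild-type level (95% interval 80.1% to 88.4%). On the log2(TPM + 1) scale with no filter on low genes the call was lost (-0.09, limma, adjusted p = 0.0751).

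The inducible HSP70 genes Hspa1a and Hspa1b, which cells switch on under heat or other protein damage, rose. Hspa1b had 69.1, 64.3 and 68.8 CPM in the libraries labelled Git2-knockout and 54.7, 57.8 and 56.8 CPM in wild-type, with no overlap (log2 fold change 0.26, SE 0.05, edgeR, Benjamini-Hochberg adjusted p = 4.47e-04). Hspa1a had 51.5, 45.8 and 52.8 CPM in the libraries labelled Git2-knockout and 43.3, 47.2 and 44.9 CPM in wild-type. For Hspa1a the groups overlapped, with 1 library labelled Git2-knockout below 1 wild-type library. Its log2 fold change of 0.15 (SE 0.06) passed narrowly (edgeR, Benjamini-Hochberg adjusted p = 0.0462), and the call was lost under 12 of 20 other settings, among them DESeq2 (adjusted p = 0.142) and leaving out replicate 3 of the libraries labelled Git2-knockout (log2 fold change 0.09, edgeR adjusted p = 0.288). Because reads of the near-identical copies may be exchanged, the summed counts are the safer measure. The sum had 121, 110.2 and 122 CPM in the libraries labelled Git2-knockout, against 98.0, 105 and 102 CPM in wild-type, without overlap. It rose to 116% of the wild-type level (95% interval 107.5% to 124%), a log2 fold change of 0.21 (SE 0.05, adjusted p = 0.00184 by edgeR), and kept this call under all 20 other settings. Hspa1a made up 41.7% to 43.5% of the pair's TPM in the libraries labelled Git2-knockout and 44.2% to 45% in wild-type, so the split of reads between the copies also differed slightly.

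Hsph1, the HSP110 protein that serves HSP70 as a nucleotide exchange factor and helps to dissolve aggregates, showed the largest fold change of the 10 genes. It had 23.0, 24.1 and 24.6 CPM in the libraries labelled Git2-knockout and 32.4, 30.6 and 32.1 CPM in wild-type. The groups were well separated, with the highest library labelled Git2-knockout below the lowest wild-type library. The log2 fold change was -0.41 (SE 0.06, edgeR, Benjamini-Hochberg adjusted p = 2.69e-05), or 75.3% of the wild-type level (95% interval 69.0% to 82.3%). The fall was called under all 20 other settings, with log2 fold changes from -0.56 to -0.24. Hsph1, with a triple heat shock element, fell, while the Hspa1a and Hspa1b promoters, with 1 pair each, belong to genes whose sum rose. Dnajb1, with neither motif, also fell, and Hspb1, with 2 pairs, was not called. Of Hspd1 and Hspe1, which share their triples, only Hspe1 was called by edgeR. A link between elements and direction was not tested. A match to a motif is a description of the letters only.

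Dnajb1, the J protein known as HSP40 that delivers substrates to HSP70, fell by less. It had 139, 139 and 141 CPM in the libraries labelled Git2-knockout and 151, 157 and 153 CPM in wild-type, without overlap (log2 fold change -0.14, SE 0.04, edgeR, Benjamini-Hochberg adjusted p = 0.0079). This call rests on the scale of the values. In TPM the groups overlapped, at 104, 108 and 109 TPM in the libraries labelled Git2-knockout and 105, 107 and 104 TPM in wild-type, and the log2(TPM + 1) difference was 0.02 (limma, adjusted p = 0.639). It was also lost without replicate 2 of wild-type (edgeR, adjusted p = 0.0542).

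The HSP90 paralogs moved apart. Hsp90ab1, the constitutive beta form, had 1236, 1257 and 1288 CPM in the libraries labelled Git2-knockout and 1578, 1567 and 1543 CPM in wild-type. Hsp90aa1, the stress-inducible alpha form, had 450.4, 450.1 and 447 CPM in the libraries labelled Git2-knockout and 407, 409 and 395 CPM in wild-type. Neither gene overlapped between groups, and for Hsp90aa1 the libraries labelled Git2-knockout were the higher ones. Hsp90ab1 fell to 80.7% of the wild-type level (log2 fold change -0.31, SE 0.03, edgeR, Benjamini-Hochberg adjusted p = 1.50e-06), and did so under all 20 other settings. Hsp90aa1 rose to 111% (log2 fold change 0.15, SE 0.04, edgeR, Benjamini-Hochberg adjusted p = 0.00212). With trends in transcript length and GC content removed, Hsp90aa1 was not called and stood at -0.06 (edgeR, adjusted p = 0.0893), so its rise depends on that choice.

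The mitochondrial chaperonin is a barrel of HSP60, encoded by Hspd1, that is closed by a lid of HSP10, encoded by Hspe1. Hspd1 had 281, 287 and 280 CPM in the libraries labelled Git2-knockout and 295, 290 and 294 CPM in wild-type. These values did not overlap, yet the log2 fold change was only -0.05 (SE 0.04, edgeR, Benjamini-Hochberg adjusted p = 0.268), with an interval of 91.3% to 102% of the wild-type level. In TPM the direction turned, with 270.3, 290 and 279 TPM in the libraries labelled Git2-knockout and 263, 256 and 258 TPM in wild-type (log2(TPM + 1) difference 0.11, limma, adjusted p = 0.023). With length and GC trends removed Hspd1 was called as a fall of -0.11 (edgeR, adjusted p = 0.00415), so no direction is given for it here. Hspe1 had 67.9, 50.6 and 51.2 CPM in the libraries labelled Git2-knockout and 77.0, 71.6 and 71.2 CPM in wild-type. Here Git2-knockout replicate 1 lay near the wild-type range and the others of its group well below it. That library also differed most from its group over the genes as a whole. The coefficient of variation of Hspe1 TPM was 14.8% in the libraries labelled Git2-knockout and 5.29% in wild-type, the widest spread of any of the 10 genes in a group. Its log2 fold change was -0.37 (SE 0.11, edgeR, Benjamini-Hochberg adjusted p = 0.0198). When Git2-knockout replicate 1 was left out it was -0.55, and without replicate 2 or 3 the call was lost (-0.31 and -0.32, edgeR adjusted p = 0.0627 and 0.0514), as it was with no filter on low genes (edgeR adjusted p = 0.0589). The Hspe1 transcript is short, with a length of 719 bases implied by the estimated counts and FPKM, and with a length trend removed the difference was -0.08 (edgeR, adjusted p = 0.375). With length and GC trends removed Hspe1 was called as a fall of -0.19 (edgeR, adjusted p = 0.0444). On the log2(TPM + 1) scale it was called (-0.22, limma, adjusted p = 0.0466), but not without a filter (limma, adjusted p = 0.107). RefSeq names 7 further copies of Hspe1 and 5 of Hspd1 in the mouse genome, none with a row in the count table, so reads of such copies could have been assigned to either gene.

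Hspb1, the small heat shock protein HSP27 that holds unfolding proteins and binds actin, was barely expressed. Its estimated counts were 28.0, 30.0 and 27 in the libraries labelled Git2-knockout and 38, 33 and 31 in wild-type. In CPM the groups overlapped, at 1.70, 1.76 and 1.59 CPM in the libraries labelled Git2-knockout and 2.04, 1.76 and 1.65 CPM in wild-type. With so few reads the interval ran from 68.9% to 124% of the wild-type level (edgeR, adjusted p = 0.67). A change within that range, in either direction, is not excluded.

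**Figure D2:**
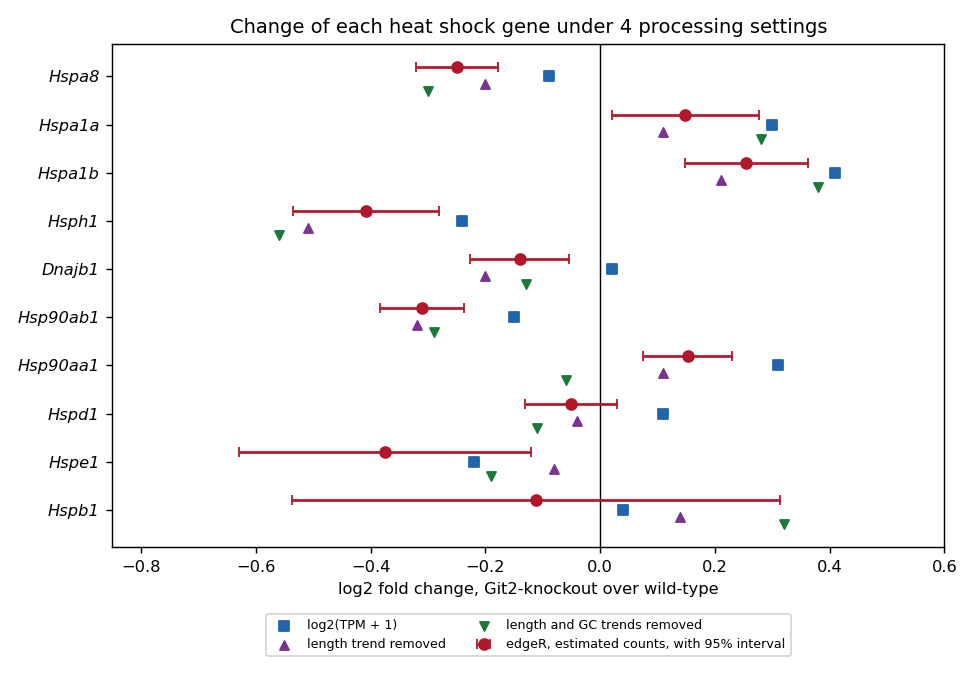
Log2 fold change of each heat shock gene (horizontal axis), libraries labelled Git2-knockout over wild-type, from edgeR with 95% intervals (red circles), from log2(TPM + 1) (blue squares), and from edgeR after removal of a transcript length trend (purple triangles) or of length and GC trends (green triangles). Hsph1, Hsp90ab1 and Hspa8 lie left of 0 and Hspa1a and Hspa1b right of 0 in each of these, while Hsp90aa1, Dnajb1, Hspd1 and Hspb1 change side.

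The scale bears on all of these values. On the log2(TPM + 1) scale the median of all genes lay at 0.14, against 0.02 in the edgeR fit, and 75.1% of calls were upward, against 51.9%. On that scale 42.1% of all genes rose and 14.0% fell by limma, and 4 of the 10 heat shock genes rose while 4 fell. Relative to the median of all genes, the TPM differences were 0.22 for the sum of Hspa1a and Hspa1b, 0.17 for Hsp90aa1, -0.23 for Hspa8, -0.29 for Hsp90ab1, -0.38 for Hsph1, -0.36 for Hspe1, -0.12 for Dnajb1 and -0.03 for Hspd1. The edgeR values, set against their own median of all genes, were 0.19, 0.14, -0.26, -0.33, -0.42, -0.39, -0.16 and -0.07 for the same genes in this order. With a length trend removed 2 of the 10 rose and 4 fell, against 23.5% and 30.5% of all genes. With length and GC trends removed 2 rose and 6 fell, against 16.0% and 29.9%.

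Ratios of partners or paralogs within a library do not depend on the scaling of that library. Hsp90aa1 stood at 32.0%, 31.4% and 30.4% of Hsp90ab1 in the libraries labelled Git2-knockout, against 22.7%, 22.9% and 22.5% in wild-type (TPM). The means were 31.3% ± 0.78 in the libraries labelled Git2-knockout and 22.7% ± 0.21 in wild-type (SD, n = 3 each), a 1.38-fold higher ratio with a gap far wider than the spread within either group. Inducible HSP70 was likewise higher relative to constitutive HSP70. The summed TPM of Hspa1a and Hspa1b was 5.29%, 4.92% and 5.38% of Hspa8 in the libraries labelled Git2-knockout and 3.61%, 3.88% and 3.86% in wild-type, 1.37-fold higher and without overlap. The cofactors of HSP70 moved by less against Hspa8. Hsph1 stood at 0.811%, 0.871% and 0.867% of Hspa8 in the libraries labelled Git2-knockout and 0.958%, 0.91% and 0.981% in wild-type, a log2 difference of -0.16. Dnajb1 stood at 5.70%, 5.78% and 5.82% of Hspa8 in the libraries labelled Git2-knockout and 5.21%, 5.40% and 5.41% in wild-type, a log2 difference of 0.11. Hspd1 stood at 130%, 179% and 171% of Hspe1 in the libraries labelled Git2-knockout and 120%, 127% and 130% in wild-type, where the lowest of the libraries labelled Git2-knockout nearly met the highest of wild-type. All 5 ratios separated the groups, and each gave an exact two-sided permutation p of 0.1, with a Benjamini-Hochberg adjusted value of 0.1 over the 5 ratios. That is the smallest p that 3 libraries against 3 can give, so no ratio could pass 0.05. Separation was common in these data. Of all genes tested, 46.4% had higher TPM without overlap in the libraries labelled Git2-knockout, and 16.2% had lower TPM without overlap. How often ratios of other gene pairs separate the groups was not tested. With length and GC trends removed, the log2 difference was 0.23 for Hsp90aa1 to Hsp90ab1 in place of 0.46, 0.64 for inducible to constitutive HSP70 in place of 0.46, and 0.08 for Hspd1 to Hspe1 in place of 0.32. With the length trend alone removed it was 0.04 for Hspd1 to Hspe1, 0.01 for Dnajb1 to Hspa8 and -0.30 for Hsph1 to Hspa8. The first 2 of these differences nearly vanished in that setting. With length and GC trends removed, however, Dnajb1 to Hspa8 stood at 0.17 in place of 0.11. Hsph1 to Hspa8 stood at -0.26 there in place of -0.16.

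**Figure D3:**
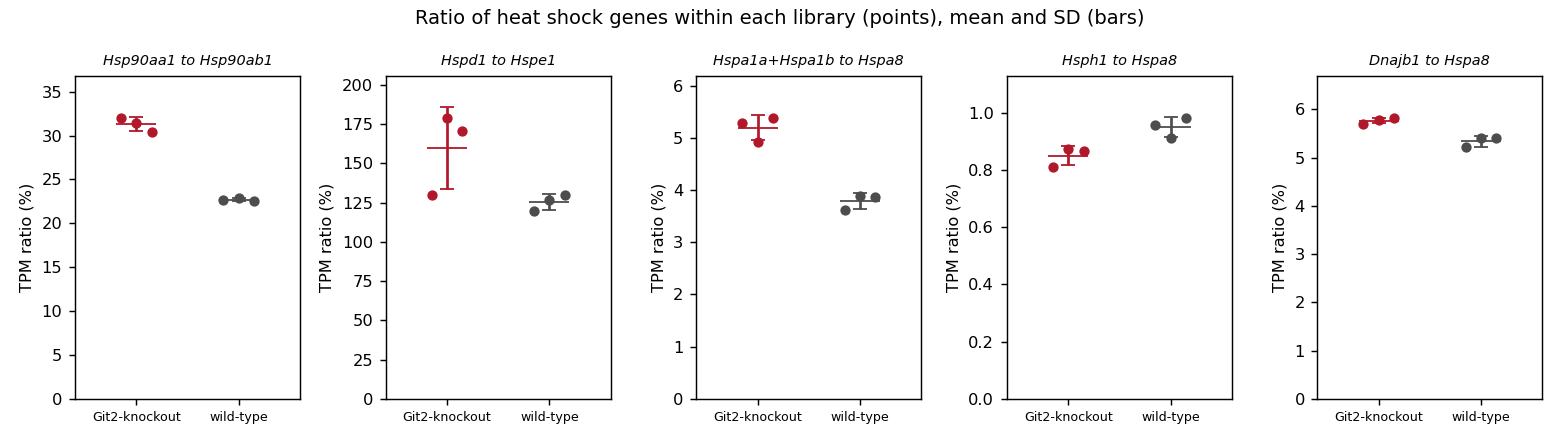
TPM ratio of heat shock genes within each library in percent (vertical axes, each from 0) for the 3 libraries labelled Git2-knockout (left, red) and the 3 wild-type libraries (right, grey). Points are libraries, and bars are the mean and SD. Hsp90aa1 to Hsp90ab1 is 30.4% to 32.0% in the libraries labelled Git2-knockout and 22.5% to 22.9% in wild-type.

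Other genes of the heat shock and folding machinery were described by lists, each set beside the 29.6% of genes that rose and the 27.4% that fell. The lists overlap: Fkbp4, Ahsa1, Bag3, Hspa4l, Ptges3, Dnajb4, Dnaja1 and other targets of Hsf1 are counted in another list as well. Their counts are therefore not separate observations. For counts on the log2(TPM + 1) scale, called the TPM scale here, the shares of all genes were 42.1% risen and 14.0% fallen. With a length trend removed they were 23.5% and 30.5%. Of the heat shock factors and their binding protein, 3 of 6 genes were tested. Hsf1, the main activator of the response, averaged 19.3 ± 1.48 CPM in the libraries labelled Git2-knockout and 24.0 ± 0.50 CPM in wild-type. It fell (log2 fold change -0.31, SE 0.07, edgeR, Benjamini-Hochberg adjusted p = 0.00147), and lost its call on the TPM scale (-0.14, limma, adjusted p = 0.122). With length and GC trends removed Hsf1 stood at -0.17 (edgeR adjusted p = 0.0413). Hsf2, a factor that works mainly in development, rose (0.36, edgeR adjusted p = 0.00172), but was called as a fall of -0.23 with length and GC trends removed (edgeR adjusted p = 0.049). Hsbp1, which binds trimers of Hsf1, was not called (-0.10), but was called as a fall of -0.22 when Git2-knockout replicate 1 was left out (edgeR adjusted p = 9.27e-05). Of 14 other known targets of Hsf1, 13 were tested, and 4 rose while 6 fell (median -0.22). On the log2(TPM + 1) scale 6 rose and 4 fell. Among them Serpinh1, the collagen chaperone HSP47, rose by 1.20 on the log2 scale (SE 0.12, edgeR adjusted p = 6.94e-07), to 8.47 ± 0.77 TPM in the libraries labelled Git2-knockout against 3.28 ± 0.27 TPM in wild-type. Serpinh1 is made by collagen-producing cells, and the fibroblast and smooth muscle markers, which summed to 112 to 123 TPM against 39.0 to 41.1 TPM, moved the same way, whose part in this rise was not tested. Ubb, a gene of polyubiquitin, fell by edgeR (-0.34), though it was not called with length and GC trends removed (-0.08, adjusted p = 0.0559).

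Around HSP70, 5 of 9 exchange factors and cofactors fell and 1 rose (median -0.16), although on the TPM scale 3 fell and 2 rose. Bag3, which links HSP70 to autophagy and is itself heat-inducible, fell the most (-0.67, SE 0.11, edgeR adjusted p = 8.58e-05). It was at 5.17 ± 0.27 TPM in the libraries labelled Git2-knockout and 7.37 ± 0.77 TPM in wild-type. Hspbp1, an inhibitor of HSP70 cycling, fell by 0.52 (-0.22 with length and GC trends removed), and the exchange factor Bag1 fell by 0.28, both on the log2 scale, but Bag1 was not called with length and GC trends removed (-0.02, adjusted p = 0.71). The ubiquitin ligase Stub1, also called CHIP, fell by 0.17 by edgeR, but stood at -0.01 on the TPM scale (limma adjusted p = 0.899) and was called as a rise of 0.19 with length and GC trends removed. Bag4 rose (0.30), but was not called with a length trend removed (0.11, adjusted p = 0.082) and stood at -0.05 with length and GC trends removed. St13, the HSP70 cofactor HIP, was not called (0.07), but was called as a rise of 0.12 with a length trend removed and as a fall of -0.16 with length and GC trends removed. Of 8 other HSP70 and HSP110 genes, 3 rose and 1 fell (median 0.11), and on the TPM scale 5 rose and 0 fell. The HSP110 relative Hspa4l rose (0.48, SE 0.05, edgeR adjusted p = 1.64e-06), which is opposite to Hsph1, but stood at -0.06 with length and GC trends removed (adjusted p = 0.323). Hspa13 rose (0.29) and was called as a fall of -0.16 in that setting. Hspa12a (0.28) and Hspa14 (-0.13) passed narrowly. Hspa12a stood at 0.03 with a length trend removed (adjusted p = 0.815), and Hspa14 turned to 0.03 on the log2(TPM + 1) scale (limma adjusted p = 0.592). Under DESeq2 both lost their calls at differences of similar size (0.26 and -0.15, adjusted p = 0.118 and 0.119). By edgeR, Hspa12a also lost its call without Git2-knockout replicate 2 or 3 or wild-type replicate 3 (adjusted p = 0.0622, 0.124 and 0.121), and Hspa14 without Git2-knockout replicate 2 or any 1 wild-type library (adjusted p = 0.0556 to 0.123). Hspa4, the most abundant of these, was not called (0.05), but was called as a rise of 0.21 on the TPM scale. It was called as a fall of -0.13 with a length trend removed and of -0.21 with length and GC trends removed. Of 26 other cytosolic and nuclear J proteins, 25 were tested, and 6 rose while 5 fell (median -0.01). On the TPM scale 11 rose and 2 fell. Dnajc9, a J protein that chaperones histones, fell (-0.45, edgeR adjusted p = 3.25e-05), as did Dnajb2 (-0.36, and -0.20 with length and GC trends removed), while Dnajb4 (0.42) and Dnajc13 (0.32) rose and were not called with length and GC trends removed (0.07 and -0.06). Dnaja1, the most abundant gene of the list, was not called (-0.01), but was called as a rise of 0.15 on the TPM scale. It was called as a fall of -0.10 with a length trend removed and of -0.35 with length and GC trends removed. Without Git2-knockout replicate 1 it was called as a fall of -0.08. Of 8 other small heat shock proteins 3 were tested and 0 changed, with 2 of 3 tested below 0 (Cryab at -0.49 and Hspb9 at -0.14) and Hspb6 at 0.05. Hspb3 was not analysed here.

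HSP90 cochaperones fell more often than they rose, with 12 of 22 fallen and 4 risen (median -0.26). With a length trend removed 12 fell and 3 rose. On the TPM scale 8 fell and 8 rose, where 14.0% of all genes fell and 42.1% rose. Fkbp4, the immunophilin that couples HSP90 to steroid receptors, fell (-0.50, SE 0.04, edgeR adjusted p = 7.20e-08), at 151 ± 5.65 TPM in the libraries labelled Git2-knockout and 191 ± 3.10 TPM in wild-type. Cdc37, which brings kinases to HSP90, fell by 0.48 (edgeR adjusted p = 1.94e-07). Ahsa1, the activator of the HSP90 ATPase, fell by 0.34. These 3 genes were called as falls under every other setting. Ptges3, the cochaperone p23 that stabilises closed HSP90, went the other way (0.22, edgeR adjusted p = 9.60e-04) and stayed called, at 0.11 with length and GC trends removed. The folliculin partners Fnip1 (0.76) and Fnip2 (0.54), which slow the HSP90 ATPase, also rose, but were not called with length and GC trends removed (0.13 and 0.15, adjusted p = 0.055 and 0.134).

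In the cytosol, the TRiC chaperonin that folds actin and tubulin and the prefoldin that feeds it had 8 of 14 genes fallen and 1 risen (median -0.21), and on the TPM scale 6 fell and 4 rose. The gene that rose was Vbp1, a prefoldin subunit (0.64, SE 0.11, edgeR adjusted p = 5.05e-04). The TRiC subunits Cct5 (-0.37) and Cct7 (-0.30) and the prefoldin subunit Pfdn2 (-0.47) fell by edgeR. Pfdn5 (-0.41) and Cct2 (-0.15) fell as well, but Pfdn5 was not called with a length trend removed (-0.08, adjusted p = 0.114) and Cct2 not on the TPM scale (0.01, limma adjusted p = 0.857). In mitochondria, 8 of 13 other chaperones and proteases fell and 2 rose (median -0.19), while on the TPM scale 3 fell and 5 rose. Lonp1 (-0.36) and Clpp (-0.49, and -0.15 with length and GC trends removed), proteases of the mitochondrial matrix, fell by edgeR, as did Grpel1 (-0.28), the exchange factor of mitochondrial HSP70, which lost its call on the TPM scale (-0.11, limma adjusted p = 0.0979). Hspa9, the mitochondrial HSP70 itself, was not called (-0.05), but was called as a rise of 0.11 on the TPM scale. It was called as a fall of -0.12 with a length trend removed and of -0.22 with length and GC trends removed. Without Git2-knockout replicate 1 it was called as a fall of -0.08. The inner membrane protease genes Yme1l1 (0.43) and Afg3l2 (0.18) rose, though Yme1l1 was called as a fall of -0.16 with length and GC trends removed, where Afg3l2 was not called (0.05).

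**Figure D4:**
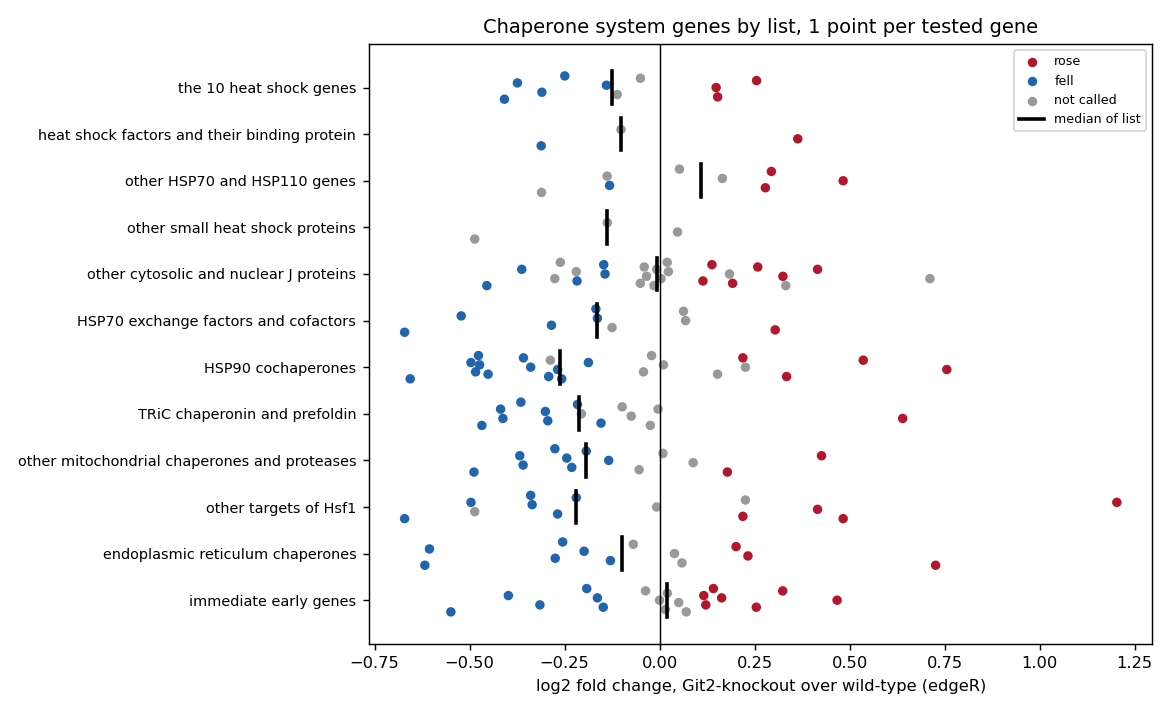
Log2 fold change by edgeR (horizontal axis), libraries labelled Git2-knockout over wild-type, of each tested gene in the 10 heat shock genes and 11 further lists (rows). Red points rose, blue points fell, grey points were not called, and black bars are list medians. Several targets of Hsf1 also appear in another row. HSP90 cochaperones have the lowest median, -0.26, and other HSP70 and HSP110 genes the highest, 0.11.

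Among 11475 other genes, the ones whose CPM pattern over the 6 libraries lay closest to that of Hsph1, the called heat shock gene with the largest change, were Nr1i2, Pde9a, Hdac11, Ush1c and Lig1. Closeness was the root mean square difference of log2 CPM centred on wild-type, which ran from 0.0236 for Nr1i2 to 0.0323 for Lig1. Their log2 fold changes were between -0.43 and -0.39, and values near that of Hsph1 follow from choosing genes by this closeness.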

How the data were processed

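Groups and replicate numbers came from the sample titles. Libraries were made from total RNA by oligo(dT) capture, fragmentation and cDNA synthesis, per the labels' protocols. HISAT, Bowtie2 and RSEM are named without versions, with the GRCm39 build, in the submitters' processing notes; the annotation and strand setting are not stated there. The authors deposited 1 table whose read counts per gene and library, per the file headers, were treated as estimated counts, since per library 58.9% to 69.2% of them were not whole numbers. FPKM, scaled by transcript length and library total, and TPM values were deposited beside them, per the file headers. The authors' group means were not used.

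After rounding, the groups were compared with edgeR 4.0.16 under R 4.3.3 (filterByExpr, TMM, robust quasi-likelihood test, two-sided, without covariates). Benjamini-Hochberg adjustment covered the 13558 genes tested, a call needed an adjusted p below 0.05, and every adjusted p given without a tool is from that test. CPM carry the TMM factors. Chi-square statistics per degree of freedom ran from 1.59 to 6.79 between replicates and from 28.2 to 40.2 between groups. Git2-knockout replicate 1 gave the highest values between replicates, 6.79 against replicate 2 and 5.05 against replicate 3. The remaining replicate pairs ran from 1.59 to 2.77. Each library was counted as a replicate, though these values cannot show whether libraries of a group are separate animals or cultures. Alternatives were 3 other scalings, DESeq2 1.42.0, limma-voom (limma 3.58.1), limma-trend on log2(TPM + 1) and log2(TPM + 0.1), a filter of 5 CPM in 3 libraries or none, a non-robust fit, a replicate block, leaving out each library, and loess removal (span 0.5) of a trend in transcript length or in length and GC content. Length covered 93.1% of tested genes and GC content 97.9%. The scripts were tested on simulated data.

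The members, gene lists and tests were chosen with earlier results of these data known. Named genes were the 10 members, Git2, up to 4 called genes with the smallest p and up to 2 with the highest TPM per list, and the 5 genes closest to Hsph1 whose log2 CPM averaged 1 or more. Cryab, Vbp1, Cdh1, C1qa, C1qb and the markers at 0 were named after their values were seen. A gene that the rule names is not reported here. Promoters came from RefSeq (GRCm38.p6). The count table has no coordinates, and 99.3% of its gene numbers matched RefSeq.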

Additional observations from a re-analysis of the deposited data

How the results depend on the processing

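Under 20 other settings, the sum of Hspa1a and Hspa1b, Hspa1b, Hsp90ab1 and Hsph1 kept their direction and call. Over all genes 4013 rose and 3712 fell, and the count of falls moved to 1894 on log2(TPM + 1), 1880 on log2(TPM + 0.1) and 1743 on log2(TPM + 1) without a filter, where 2 of the 10 heat shock genes fell in place of 5. Rises dropped to 2172 with length and GC trends removed. Upward calls were 51.9% of the total by edgeR, 75.1% on log2(TPM + 1), 43.5% after length correction and 34.9% after length and GC correction. On the 3 TPM scales Dnajb1 turned to 0.022, Hspd1 to 0.110 and Hspb1 to 0.041 or 0.050. Hspb1 also turned to 0.138 after length correction and 0.321 after length and GC correction, where Hsp90aa1 turned to -0.058. The cause was not tested. Hspb1 has no value under the filter of 5 CPM. Leaving out each library in turn gave 3430 to 4082 rises and 3150 to 4261 falls, with 2 to 3 heat shock genes risen and 4 to 5 fallen. With a library left out, the differences of mean log2 TPM ratio ran from 0.447 to 0.482 for Hsp90aa1 to Hsp90ab1, 0.424 to 0.496 for inducible to constitutive HSP70, 0.250 to 0.478 for Hspd1 to Hspe1, -0.192 to -0.128 for Hsph1 to Hspa8 and 0.093 to 0.121 for Dnajb1 to Hspa8. A replicate block gave 3863 rises and 3578 falls, with 2 heat shock genes risen and 5 fallen. Deviations of same-numbered libraries from their group means correlated at 0.041, -0.001 and 0.05, against -0.068 to 0.033 for differently numbered libraries. With 3 libraries per group, such values cannot show whether same-numbered libraries share more than a number. Depth limits Hspb1 most, with an interval from 68.9% to 124% of the wild-type level.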

Other observations

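Endoplasmic reticulum chaperones and immediate early genes, which respond within minutes to growth factors or handling, were measured beside the heat shock genes. Over all genes 29.6% rose and 27.4% fell by edgeR, and 42.1% rose and 14.0% fell on the log2(TPM + 1) scale by limma. Of 12 endoplasmic reticulum chaperone genes, 3 rose and 6 fell by edgeR (median -0.10). On the log2(TPM + 1) scale 5 rose and 4 fell. Hspa5, the endoplasmic reticulum HSP70 called BiP, was not called (0.06, edgeR, Benjamini-Hochberg adjusted p = 0.16), but was called as a rise on the TPM scale (0.22, limma adjusted p = 2.44e-04) and as a fall with length and GC trends removed (-0.07, edgeR adjusted p = 0.0316). Dnajb9, a J protein of that compartment, rose by 0.73 (SE 0.08, edgeR adjusted p = 2.66e-05), at 413.5 ± 40.3 TPM in the libraries labelled Git2-knockout and 224 ± 7.80 TPM in wild-type. Creld2 (-0.62) and Sdf2l1 (-0.61), genes induced when proteins unfold in that compartment, fell, as did the calcium-binding chaperone Calr (-0.27). With length and GC trends removed Creld2 stood at -0.35 and Sdf2l1 at -0.26.

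Of 19 immediate early genes, 7 rose and 6 fell (median 0.02, the same as over all genes), and on the TPM scale 13 rose and 3 fell. The transcription factor gene Egr2 rose by 0.32 and Klf4 by 0.25. Myc fell by 0.55 and Ier2 by 0.40, but Ier2 stood at -0.09 with length and GC trends removed (edgeR adjusted p = 0.0223). Jun (-0.16) and Zfp36 (-0.19) fell by edgeR but were not called on the TPM scale (limma adjusted p = 0.953 and 0.491).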
